A study of Mus musculus with 9 samples.

Results

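The genes described here encode the subunits of the transcription factor NF-kappaB and the proteins that hold it in check, followed across the hormone treatments of mouse oviductal cells. The 10 genes were chosen by name among 23332 gene rows, and all 10 have a row of their own. They are the subunits *Rela*, *Relb*, *Nfkb1* and *Nfkb2*, the inhibitors *Nfkbia*, *Nfkbib* and *Nfkbie*, the nuclear relatives of these inhibitors *Nfkbiz* and *Bcl3*, and the feedback regulator *Tnfaip3*. The list was drawn up with results of these data known, the response of *Nfkbia* to E2 among them, so every value and call for its members below is a description and supports nothing further. FVB MOE cells are a monoclonal line of secretory oviductal epithelial cells from FVB mice, and so they represent 1 clone. All samples were hormone starved in stripped medium for 48 h and then kept for 24 h with the solvent DMSO at 0.1%, with 1 nM 17-beta-estradiol (E2) or with 100 nM 4-hydroxytamoxifen (4OHT), a selective estrogen receptor modulator. Each condition had 3 samples, no sample received both ligands, and the 2 ligands were given at different doses.

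NF-kappaB is a family of dimers. In resting cells the dimers that contain the *Rela* product are kept in the cytoplasm by IkappaB proteins, the products of *Nfkbia*, *Nfkbib* and *Nfkbie*. The IkappaB kinase complex marks these inhibitors for destruction when a receptor for TNF, interleukin-1 or bacterial products is engaged, and the freed dimers enter the nucleus. *Nfkbia* and *Tnfaip3* are themselves classic NF-kappaB target genes, and their products close negative feedback loops on the pathway. In many epithelia NF-kappaB is known for its part in inflammation and cell survival, and ligand-bound estrogen receptors are known to meet NF-kappaB at shared genes.

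Expression was measured by RNA sequencing and is given as FPKM, the fragments counted for a transcript divided by its length and by the mapped fragments of the sample. FPKM is a level per length, so that levels may be set side by side between genes. In every sample the FPKM of the 10 genes were at 3.35 or more, none was listed at 0, and all 10 passed the filter (an FPKM of 1 or more in 3 or more samples), which left 11339 rows for the test. Differences between conditions are log2 fold changes of FPKM + 1 from limma, fitted on all 9 samples, and adjusted p-values are Benjamini-Hochberg values over all 11339 rows with a threshold of 0.05. A second limma fit took the replicate number of the label as a block, since same-numbered samples deviated together. The labels do not say whether the replicates were separate cultures, so the p-values measure the spread between these samples, which may be technical.

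The label of the cells was checked against marker genes. Of 8 secretory oviduct markers, 6 were at an FPKM of at least 1 in every sample, with *Pax8* at 119 ± 20.3 (SD, n = 3) in DMSO, while the epithelial adhesion genes *Epcam* and *Cdh1* lay near 0 in all conditions (0.0318 ± 0.0146 and 0.305 ± 0.0909 in DMSO). The summed FPKM of the secretory markers, most of it from keratins, was 1266 to 1397 in DMSO, 2165 to 2327 in E2 and 1352 to 1492 in 4OHT. The list did not go 1 way. *Krt7* (means of 310 FPKM in DMSO and 816 in E2), *Krt8*, *Krt18*, *Pax8*, *Esr1* and *Cdh1* were higher with E2 in the 3 pairs. *Ovgp1* was lower with E2 in the 3 pairs (means of 2.24 and 1.65). Of 4 ciliated cell markers with a row, 3 were at an FPKM of at least 1 in every sample, and the sums of the list were 18.0 to 20.6, 13.8 to 17.7 and 18.4 to 20.5. These markers did not go 1 way, since the mean of *Foxj1* was 14.9 FPKM in DMSO and 11.2 in E2, while that of *Rsph1* was 3.10 and 3.68 and *Tekt1*, below 1 in every sample, was also higher with E2 in the 3 pairs. Leukocytes, as background, are rich in NF-kappaB transcripts. Of 6 leukocyte markers with a row, *Cd68* and *Csf1r* reached an FPKM of 1 in every sample, while *Ptprc* was at most 0.0271 and *Cd3e* was listed at 0 in all 9 samples, and the sums of the list overlapped between the conditions, at 7.65 to 9.92, 7.16 to 9.69 and 6.26 to 8.68. Of 5 stroma markers only *Col1a1* reached an FPKM of 1 in every sample, with overlapping sums of 1.99 to 6.93, 2.26 to 4.70 and 2.07 to 5.36. The part of the secretory and ciliated marker differences in the results below was not tested. Total FPKM was 522517 to 588640 per sample. The worth of 1 read among genes of low FPKM put the relative depth, with DMSO replicate 1 at 1, at 1 to 1.18 in DMSO, 0.838 to 1.07 in E2 and 0.819 to 0.923 in 4OHT, so that in 4OHT versus DMSO depth and treatment cannot be told apart.

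The promoters of 4 genes are shown first because these genes passed the threshold in E2 versus DMSO in at least the fit with the replicate block and have an entry among the RefSeq promoter windows of the build GRCm38.p6. Each window runs from 250 bases before to 50 bases after the start site, printed 5′ to 3′ on the strand of the gene. Capitals mark matches to the 10-letter kappaB consensus, the site that NF-kappaB dimers bind, searched on both strands. The windows are chr12:55492598-55492897 (minus strand) for *Nfkbia*, chr10:19015361-19015660 (minus strand) for *Tnfaip3*, chr7:19822706-19823005 (minus strand) for *Bcl3* and chr17:45555450-45555749 (plus strand) for *Nfkbie*.
Nfkbia: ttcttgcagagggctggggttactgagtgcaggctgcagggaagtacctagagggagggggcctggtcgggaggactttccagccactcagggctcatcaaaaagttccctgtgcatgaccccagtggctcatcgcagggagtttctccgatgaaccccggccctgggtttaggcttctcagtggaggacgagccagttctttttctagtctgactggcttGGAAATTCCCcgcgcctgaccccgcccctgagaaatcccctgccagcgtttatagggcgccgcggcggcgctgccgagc
Tnfaip3: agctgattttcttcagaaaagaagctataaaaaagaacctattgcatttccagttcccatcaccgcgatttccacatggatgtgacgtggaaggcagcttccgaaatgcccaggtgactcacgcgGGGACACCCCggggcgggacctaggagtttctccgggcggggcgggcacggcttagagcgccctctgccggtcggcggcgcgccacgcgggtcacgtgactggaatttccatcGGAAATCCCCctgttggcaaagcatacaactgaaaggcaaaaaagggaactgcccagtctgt
Bcl3: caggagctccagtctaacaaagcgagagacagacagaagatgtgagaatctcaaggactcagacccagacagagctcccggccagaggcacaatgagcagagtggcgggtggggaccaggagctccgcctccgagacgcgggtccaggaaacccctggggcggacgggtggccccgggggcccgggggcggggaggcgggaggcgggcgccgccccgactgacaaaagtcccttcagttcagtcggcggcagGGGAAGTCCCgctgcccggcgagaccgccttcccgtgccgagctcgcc
Nfkbie: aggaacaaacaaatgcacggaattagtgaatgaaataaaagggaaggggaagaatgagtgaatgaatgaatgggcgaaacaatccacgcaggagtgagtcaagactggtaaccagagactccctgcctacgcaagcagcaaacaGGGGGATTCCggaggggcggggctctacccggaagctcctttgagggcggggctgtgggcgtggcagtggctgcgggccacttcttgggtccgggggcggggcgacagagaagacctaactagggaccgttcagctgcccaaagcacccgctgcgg

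The *Nfkbia* window holds GGAAATTCCC at bases -29 to -20 from the start site. *Tnfaip3* holds GGGACACCCC at -125 to -116 and GGAAATCCCC at -12 to -3. In *Bcl3* the match GGGAAGTCCC lies just after the start, at bases 3 to 12, and in *Nfkbie* GGGGGATTCC lies at -106 to -97. Of the 10 genes, 7 had entries, 10 entries in all, and 7 of these 10 entries held a kappaB match, beside 4.51% of all 32851 promoter windows. The 7 entries belong to 5 genes, the fifth being *Nfkb2*. Its windows chr19:46305445-46305744 and chr19:46305680-46305979 overlap, and the match GGGACTTTCC is the same site counted in both. *Rela* and *Nfkbib* held none, nor did a second *Tnfaip3* window (chr10:19011914-19012213), which has no AP-1 match either. Of all windows 0.554% held 2 or more matches. The palindromic estrogen response element, searched on both strands, was in no window of these genes and in 0.07% of all windows. A motif this rare is absent from almost any 10 windows, so its absence here tells nothing about these genes. The AP-1 motif TGANTCA, searched on both strands, was in windows of *Nfkb2*, *Nfkbie* and *Tnfaip3* and in 7.81% of all windows. Matches stood in genes of both directions, since among the 4 genes printed the mean levels with E2 were higher for *Nfkbia* and *Tnfaip3* and lower for *Bcl3* and *Nfkbie*. A match describes letters and is not a measured binding site. *Nfkbiz*, *Nfkb1* and *Relb* had no entry.

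In DMSO the 10 genes spanned about an order of magnitude of FPKM. From the highest, the mean levels in DMSO ran *Nfkb2*, *Rela*, *Nfkbia*, *Nfkb1*, *Tnfaip3*, *Nfkbiz*, *Relb*, *Nfkbib*, *Bcl3* and *Nfkbie*, from 56.1 ± 9.41 FPKM (SD, n = 3) to 5.12 ± 1.04. Neighbours in this order did not overlap over their 3 samples for *Rela* and *Nfkbia*, *Nfkbiz* and *Relb*, *Relb* and *Nfkbib*, and *Nfkbib* and *Bcl3*, and all other neighbours overlapped. With E2 *Nfkbia* had the highest mean of the 10, 90.3 FPKM against 50.5 for *Rela*, the next. With 4OHT the highest means were again those of *Nfkb2* and *Rela*, 59.2 and 53.1 FPKM.

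**Figure D1:**
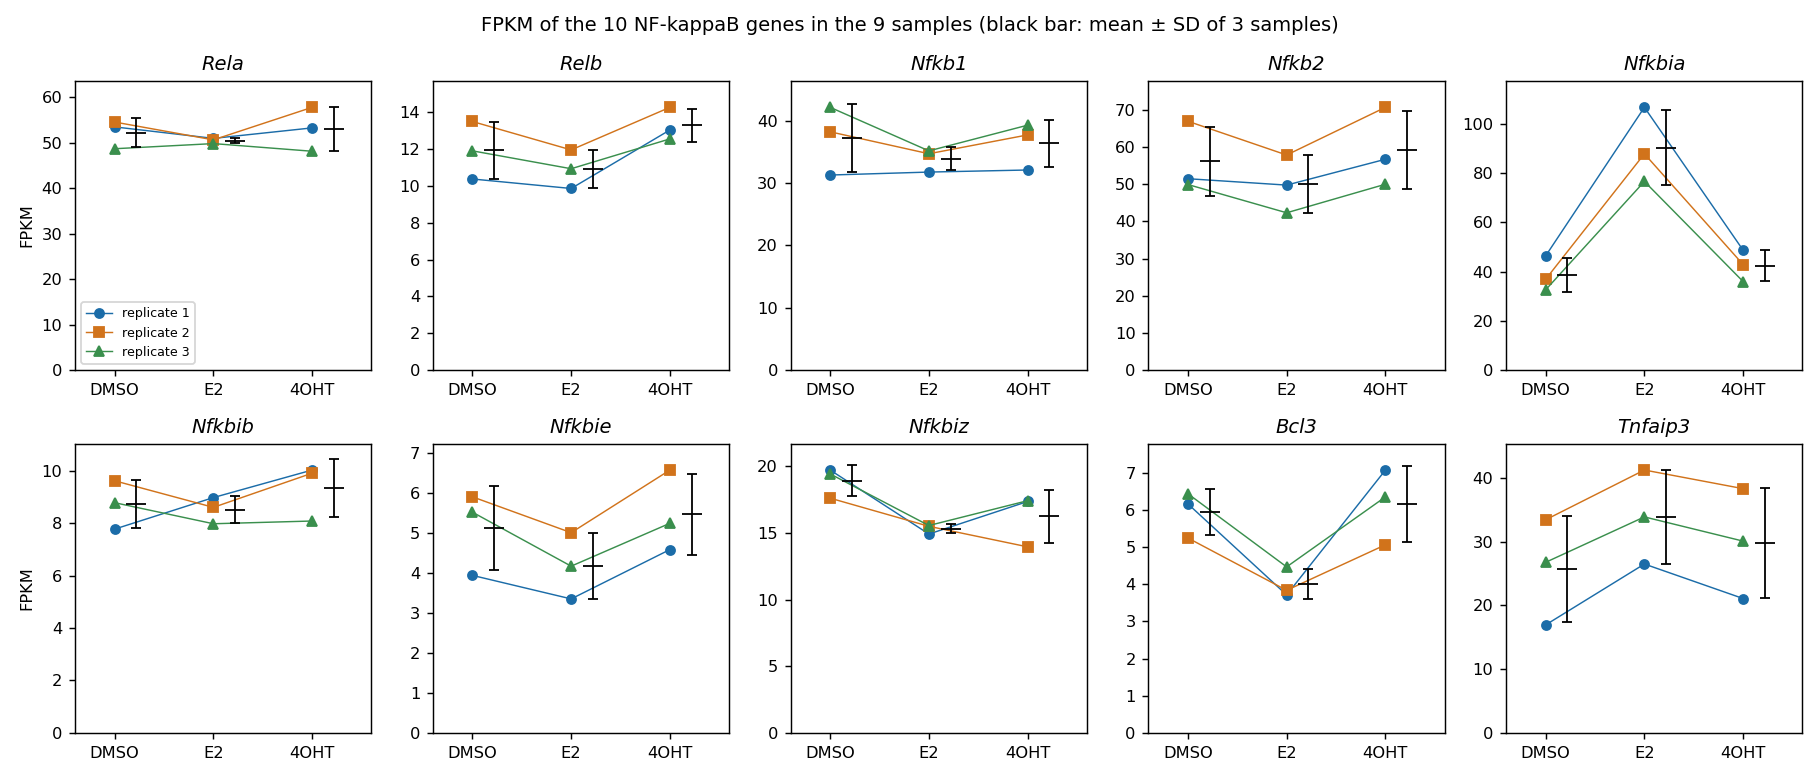
FPKM of each gene (vertical axes, each from 0) in DMSO, E2 and 4OHT. Coloured points are the 3 samples of a condition, lines join samples with the same replicate number, and black bars are the mean ± SD. *Nfkbia* is the gene whose E2 samples, 76.6 to 107 FPKM, stand far above both other conditions, while *Bcl3* is lower in all 3 E2 samples.

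Of the 10 genes, *Nfkbia* alone passed the threshold in E2 versus DMSO without the block. *Nfkbia* (GRCm38, chromosome 12, 55489410 to 55492647, minus strand, protein coding) encodes IkappaB-alpha, the inhibitor that NF-kappaB resynthesizes after each activation. Its FPKM was 46.3, 36.9 and 32.6 in the DMSO samples, 107, 87.8 and 76.6 in the E2 samples and 48.6, 42.8 and 35.9 in the 4OHT samples, replicates 1 to 3. Every E2 sample was above every sample of the other conditions, and replicate 1 was the highest in each condition. The means were 38.6 ± 7.04, 90.3 ± 15.2 and 42.5 ± 6.36 (SD, n = 3), a ratio of 2.34 between E2 and DMSO. *Nfkbia* rose with E2 by 1.21 on the log2 scale (SE 0.17, limma adjusted p = 0.0344), and by 1.18, 1.23 and 1.21 in the 3 same-numbered pairs. In RNA from a whole culture a change in every cell and a change in the share of cells with the transcript cannot be told apart. The fit with the replicate block gave an adjusted p of 0.000251, and over 26 alternatives it ran from 7.11e-06 to 0.168, 16 of them past the threshold. Without the block the call was kept only when DMSO replicate 1 was left out (adjusted p = 0.0315) and was lost when any one of the other 8 samples was (up to 0.168, log2 fold changes 1.08 to 1.34 over the 9), whereas the blocked fit kept it in all 9. In the fit without the block 1 of the 10 genes was called in E2 versus DMSO, where 0.512% of all rows tested were, 0.494% higher and 0.0176% lower.

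With the block 5 of the 10 genes passed in E2 versus DMSO, *Nfkbia* and *Tnfaip3* higher and *Bcl3*, *Nfkbie* and *Nfkbiz* lower, beside 15.0% of all rows tested, 10.4% higher and 4.63% lower. The groups of E2 and DMSO did not overlap for *Nfkbia*, *Nfkbiz* and *Bcl3*, 3 of the 10 genes, as for 15.2% of all rows, and these 3 also had a raw p under 0.05 without the block, as did 10.9% of all rows. The 3 same-numbered pairs went 1 way for 7 of the 10 genes and for 52.4% of all rows. The median log2 fold change was -0.12 over the 10 genes, 2 of them higher and 8 lower, and about 0 (-0.003) over all rows tested.

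*Tnfaip3* encodes A20, a ubiquitin-editing enzyme that shuts off signalling between TNF-type receptors and the IkappaB kinase. The gene lies on chromosome 10 (19000910 to 19015657, minus strand, protein coding). Its FPKM was 16.9, 33.4 and 26.8 in DMSO, 26.5, 41.3 and 33.9 in E2 and 21.1, 38.3 and 30.1 in 4OHT. The conditions overlapped, but within each replicate number the order was the same, with E2 highest and DMSO lowest. Among the 10 genes it differed most between replicate numbers, whose means over the conditions were 21.5, 37.7 and 30.3, a ratio of 1.75 between the highest and the lowest, where the other genes lay between 1.11 for *Rela* and *Nfkbiz* and 1.47 for *Nfkbie*. The log2 fold change for E2 versus DMSO was 0.41 (SE 0.29, limma adjusted p = 0.648), and 0.62, 0.29 and 0.33 in the 3 pairs. The blocked fit gave an adjusted p of 0.0117, past the threshold also with any 1 of the 9 samples left out. Over all 26 alternatives it ran from 0.00282 to 0.817, and the 11 past the threshold all used the block.

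*Bcl3* and *Nfkbiz* encode nuclear IkappaB relatives, which sit on NF-kappaB dimers at DNA and change which target genes are transcribed. *Bcl3* (chromosome 7, 19808462 to 19822770, minus strand) was at 6.16, 5.24 and 6.43 FPKM in DMSO, 3.71, 3.83 and 4.46 in E2 and 7.07, 5.06 and 6.35 in 4OHT. All 3 E2 samples were below all 6 others. The mean with E2 was 0.673 times that with DMSO, with a log2 fold change of -0.47 (SE 0.12, limma adjusted p = 0.212) and pairs at -0.60, -0.37 and -0.44. The blocked fit gave an adjusted p of 0.0174, and it ran from 0.00535 to 0.581 over the 26 alternatives. Of these, 7 passed the threshold, all with the block. With the block the call was lost without DMSO replicate 1, 2 or 3 or without E2 replicate 3 (up to 0.0815). Unstranded counting could not tell *Bcl3* reads from those of the antisense genes *Gm16175* and *Gm16174*, which the annotation places over it. The libraries were directional, and whether counting used the strand is not stated in the sources used here.

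*Nfkbiz* (chromosome 16, 55811375 to 55838899, minus strand), which encodes IkappaB-zeta, stood at 19.7, 17.6 and 19.4 FPKM in DMSO, 14.9, 15.5 and 15.5 in E2 and 17.3, 13.9 and 17.4 in 4OHT. Here all 6 ligand samples were below all 3 DMSO samples, and the ranges of E2 and 4OHT overlapped. For E2 the mean was 0.810 times that of DMSO, with a log2 fold change of -0.29 (SE 0.09, limma adjusted p = 0.304). The blocked fit gave an adjusted p of 0.0400 (0.0179 to 0.689 over 26 alternatives). Of these, 4 passed the threshold, all with the block. With the block the call held without E2 replicate 2 or without 4OHT replicate 2 and was lost when any other sample was left out, up to an adjusted p of 0.137. For 4OHT the log2 fold change was -0.21 (SE 0.09), with an adjusted p of 0.376 with the block (0.214 to 1.00 over its 26 alternatives).

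The mean levels of the other classical inhibitors were not higher with E2. *Nfkbie* (chromosome 17, 45555703 to 45563169, plus strand), which encodes IkappaB-epsilon, was at 3.93, 5.90 and 5.51 FPKM in DMSO, 3.35, 5.00 and 4.16 in E2 and 4.58, 6.57 and 5.24 in 4OHT. The groups overlapped, and E2 was the lowest condition in each replicate number. Its log2 fold change for E2 versus DMSO was -0.24 (SE 0.17, limma adjusted p = 0.657). The blocked fit gave an adjusted p of 0.0329 (0.0198 to 0.998 over 26 alternatives, 4 past the threshold, all with the block). With the block the call was kept only without DMSO replicate 1 or without 4OHT replicate 3 and otherwise lost, up to 0.112. *Nfkbib* (chromosome 7, 28758251 to 28767512, minus strand), which encodes IkappaB-beta, was at 7.77, 9.61 and 8.78 in DMSO, 8.97, 8.60 and 7.97 in E2 and 10.0, 9.90 and 8.08 in 4OHT. Its E2 and DMSO samples were intermixed, with a log2 fold change of -0.03 (SE 0.10, adjusted p = 0.939, 0.853 with the block). *Nfkbib* shares exon bases with *Ccer2* and *Sirt2* on the opposite strand.

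None of the 4 subunit genes passed in E2 versus DMSO in either fit. *Rela*, which encodes the main activating subunit (chromosome 19, 5637483 to 5648130, plus strand), was at 53.5, 54.6 and 48.7 FPKM in DMSO, 51.0, 50.6 and 49.8 in E2 and 53.3, 57.8 and 48.1 in 4OHT. *Relb*, the partner of the non-canonical branch (chromosome 7, 19606217 to 19629438, minus strand), was at 10.4, 13.5 and 11.9 in DMSO, 9.86, 12.0 and 10.9 in E2 and 13.0, 14.3 and 12.5 in 4OHT. In both genes the DMSO and E2 ranges overlapped. *Nfkb1* and *Nfkb2* encode precursors that serve as inhibitors until they are processed to the smaller subunits. *Nfkb1* (chromosome 3, 135584655 to 135691547, minus strand) was at 31.3, 38.2 and 42.1 FPKM in DMSO, 31.8, 34.7 and 35.2 in E2 and 32.1, 37.7 and 39.3 in 4OHT, and *Nfkb2* (chromosome 19, 46304320 to 46312385, plus strand) at 51.5, 67.0 and 49.9, at 49.8, 57.9 and 42.3 and at 56.7, 70.7 and 50.0. These 2 genes overlapped between all conditions as well. Both *Nfkb2* and *Relb* were lower with E2 than with DMSO in each same-numbered pair. The log2 fold changes for E2 versus DMSO were -0.05 for *Rela* (SE 0.07), -0.11 for *Relb* (SE 0.10), -0.12 for *Nfkb1* (SE 0.12) and -0.16 for *Nfkb2* (SE 0.17), with limma adjusted p-values from 0.713 to 0.832. The blocked fit gave adjusted p-values of 0.513, 0.193, 0.158 and 0.0516 in the same order. That of *Nfkb2* passed the threshold when DMSO replicate 1 or E2 replicate 1 was left out and ran from 0.0339 to 0.998 over its 26 alternatives, and for the other 3 genes none passed, with 0.0679 as the lowest. *Nfkb2* shares exon bases with *Psd* on the opposite strand. *Nfkb1* overlaps the annotated gene *Gm43430* on the same strand, and shared exon bases were looked up for protein-coding genes only.

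**Figure D2:**
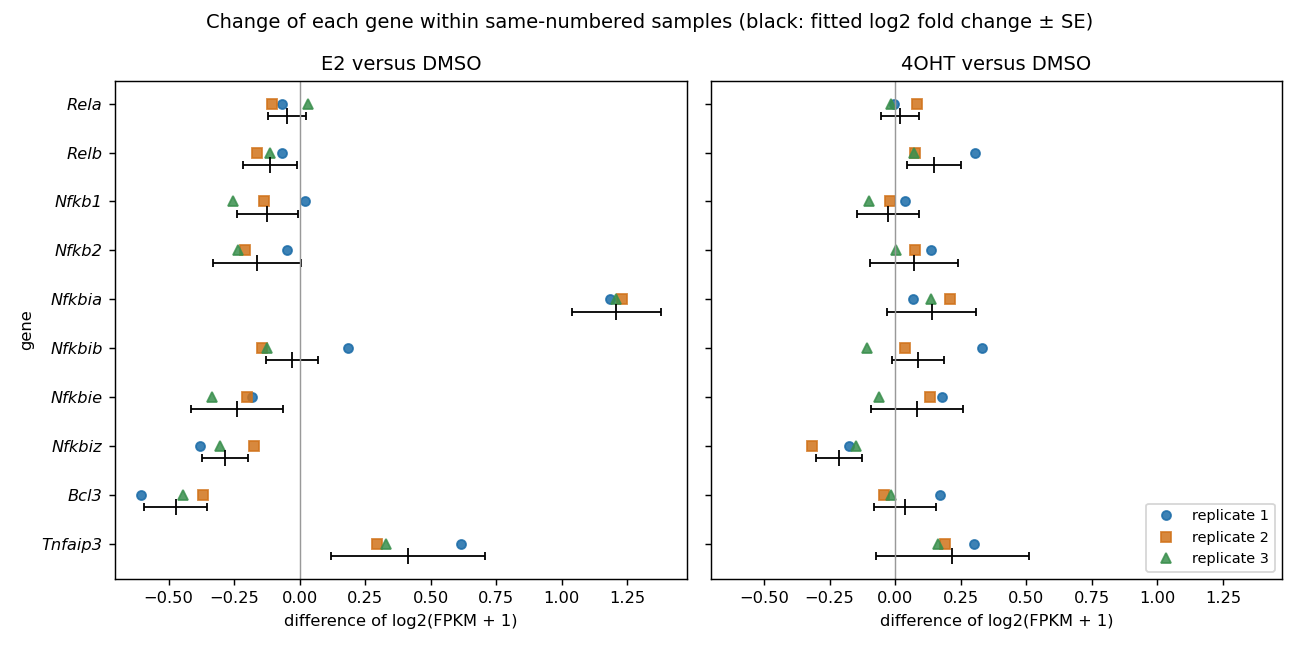
Difference of log2(FPKM + 1) between treated and DMSO samples with the same replicate number (coloured points) and fitted log2 fold change ± SE without the block (black) for each gene. With E2 the 3 *Nfkbia* points lie together at 1.18 to 1.23, *Tnfaip3* is above 0 and *Bcl3*, *Nfkbiz* and *Nfkbie* are below 0 in all 3 pairs. With 4OHT the 3 *Nfkbia* points lie at 0.07 to 0.21 and the *Nfkbiz* points are below 0.

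Summed by role, the transcripts of the classical inhibitors stood higher against those of the subunits with E2, and most of the difference lay in *Nfkbia*. The sums of *Rela*, *Relb*, *Nfkb1* and *Nfkb2* were 147, 173 and 153 FPKM in DMSO, 142, 155 and 138 in E2 and 155, 180 and 150.0 in 4OHT, and overlapped. Within each replicate number the subunit sum was lowest with E2, which also raised the ratio below. The sums of *Nfkbia*, *Nfkbib* and *Nfkbie* were 58.0, 52.4 and 46.9 in DMSO, 119, 101 and 88.7 in E2 and 63.2, 59.3 and 49.2 in 4OHT, so that E2 stood apart. The ratio of the inhibitor sum to the subunit sum was 0.335 ± 0.0527 in DMSO, 0.710 ± 0.109 in E2 and 0.355 ± 0.0457 in 4OHT (SD, n = 3), with every E2 sample above all others. *Nfkbia* made up 73.2% ± 5.73 of the inhibitor sum in DMSO, 87.5% ± 1.85 in E2 and 74.0% ± 2.52 in 4OHT. The ratio of *Nfkbia* to *Rela* was 0.737 ± 0.112 in DMSO, 1.79 ± 0.282 in E2 and 0.800 ± 0.0978 in 4OHT (SD, n = 3). These are ratios of transcript levels, and no protein was measured in these files.

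**Figure D3:**
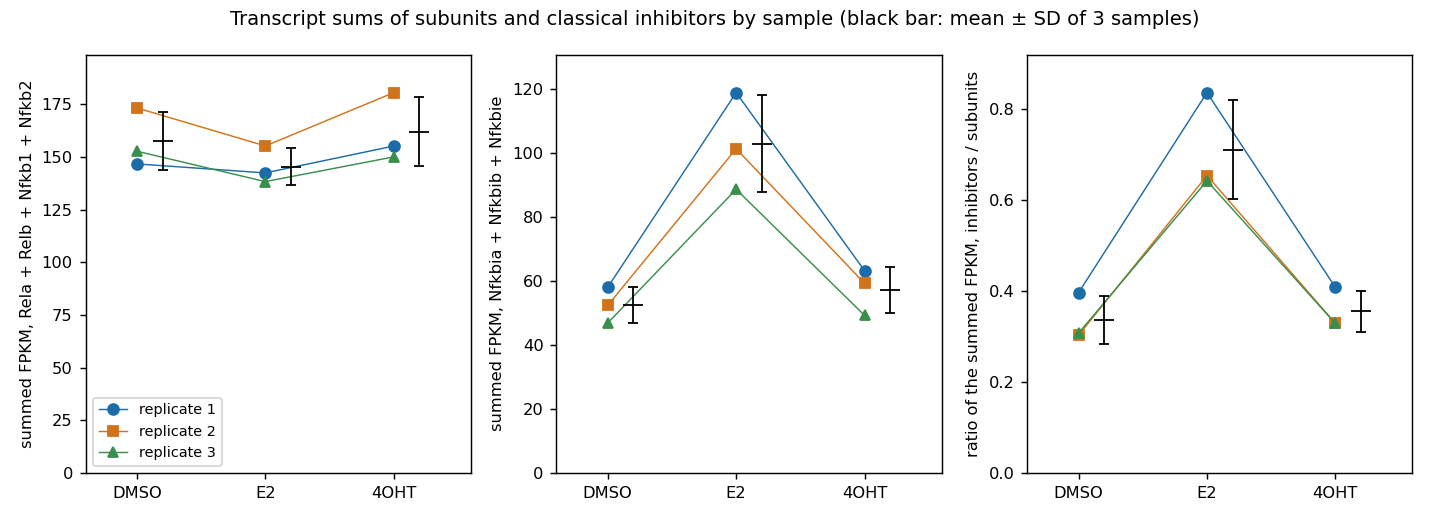
Summed FPKM of the 4 subunit genes, summed FPKM of the 3 classical inhibitor genes and their ratio (vertical axes from 0) in each sample, joined by replicate number, with the mean ± SD as black bars. The ratio is 0.642 to 0.835 in E2 and at most 0.408 in the other samples.

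No member was called in 4OHT versus DMSO by limma in either fit, where 0% of all rows tested passed, and 1 of the 10, *Nfkbiz*, had a raw p under 0.05 without the block, as did 2.76% of all rows (313). *Nfkbiz* was also the only one whose 4OHT and DMSO samples did not overlap, as for 7.94% of all rows. The log2 fold change of *Nfkbia* was 0.14 (SE 0.17, adjusted p = 1.00, 0.368 with the block), its 95% interval was -0.25 to 0.53 without and 0.06 to 0.22 with the block, both unadjusted, and the pairs were 0.07, 0.21 and 0.14. The unadjusted 95% interval with the block also left out 0 for *Relb* (0.02 to 0.28), *Tnfaip3* (0.06 to 0.37) and *Nfkbiz* (-0.38 to -0.05). The share of all rows with such an interval was not computed. The 3 pairs went 1 way for 5 of the 10 genes and for 45.9% of all rows. *Tnfaip3* was, like *Nfkbia*, higher with 4OHT in the 3 pairs (0.30, 0.19 and 0.16), and its groups overlapped. The median log2 fold change was 0.08 over the 10 genes, 8 higher and 2 lower, and 0.03 over all rows. The direction of the *Rela* difference, 0.02, turned to -0.01 with upper-quartile scaling. The E2 and the 4OHT comparison share the DMSO samples.

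The difference between the ligands was tested as E2 versus 4OHT. Without the block none of the 10 genes passed, where 0.159% of all rows did, and 3 of the 10 had a raw p under 0.05, as did 11.5% of all rows. *Nfkbia* was 1.07 higher with E2 on the log2 scale (adjusted p = 0.0751, 0.000454 with the block, 1.90e-05 to 0.289 over 26 alternatives, 12 past the threshold). With the block 5 of the 10 passed, *Nfkbia* higher with E2 and *Bcl3*, *Nfkb2*, *Nfkbie* and *Relb* lower, beside 16.2% of all rows, 8.63% higher and 7.60% lower. *Bcl3* differed by -0.51 on the log2 scale (block adjusted p = 0.0165, 0.00451 to 0.579 over alternatives) and *Nfkbie* by -0.32 (0.0162, 0.00660 to 0.934). *Nfkb2* differed by -0.23 (0.0204, 0.00902 to 0.952) and *Relb* by -0.26 (0.0276, 0.0123 to 0.912). The E2 and 4OHT samples did not overlap for *Nfkbia*, *Bcl3* and *Relb*, 3 of the 10, as for 18.3% of all rows, and the pairs went 1 way for 8 of the 10 and for 55.2% of all rows. With the block, *Nfkbia* kept its call with any 1 sample left out, and *Bcl3* lost it only without 4OHT replicate 1 (adjusted p = 0.0546). *Nfkb2* and *Nfkbie* lost theirs without E2 replicate 2 or 3 or without 4OHT replicate 1 or 2 (up to 0.102 and 0.0889), and *Relb* kept its call only without DMSO replicate 1 or 2 or 4OHT replicate 3 (up to 0.0845 otherwise).

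The other genes of the pathway were taken from lists set by role, 81 genes, of which 80 have a row of their own and 57 were tested. In E2 versus DMSO 2 of the 57 passed without the block, both higher, beside 0.512% of all rows tested (0.494% higher). With the block 13 passed, 10 higher and 3 lower, which is 22.8% beside 15.0% of all rows (10.4% higher and 4.63% lower). Their median log2 fold change was 0.04. In 4OHT versus DMSO 0 of the 57 passed in either limma fit.

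Among the receptors and adaptors, which carry the signal from the membrane, 18 of 23 were tested and none passed without the block. The most abundant in DMSO were *Irak1* (63.0 FPKM), a kinase of the interleukin-1 and Toll-like receptor branch, and *Ltbr* (47.9 FPKM), the lymphotoxin receptor. With the block *Tlr4*, the receptor for bacterial lipopolysaccharide, was higher with E2 (5.53 to 7.13 FPKM, log2 fold change 0.32), as was *Irak4* (0.15). The list of kinases also holds genes for proteins that bind kinases, such as *Tab2*. All 10 genes of this list were tested, with *Tab2* at 57.1 and *Chuk* at 35.1 FPKM in DMSO. None passed without the block, and 3 were higher with it, namely *Map3k14* (17.2 to 21.3 FPKM, log2 fold change 0.29), the NIK kinase of the non-canonical branch, *Ikbkg* (25.2 to 29.0, 0.20), the NEMO scaffold, and *Chuk* (35.1 to 37.9, 0.11), IkappaB kinase alpha. Of 5 other genes of the Rel and IkappaB families and their partners 4 were tested and none passed in either fit. The most abundant of them were *Nfkbil1* at 5.50 and *Nkiras2* at 5.08 FPKM in DMSO, the subunit *Rel* was at 2.50, 2.73 and 2.32 FPKM in DMSO, E2 and 4OHT, and *Nfkbid* was listed at 0 in 8 of the 9 samples.

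Of the 14 ubiquitin and feedback regulators 13 had a row of their own and 11 were tested. None passed without the block, and with it *Itch*, a ubiquitin ligase that works with A20, was higher with E2 (19.2 to 24.1 FPKM, log2 fold change 0.32), as was *Tollip* (0.18), an adaptor that dampens interleukin-1 and Toll-like signalling. *Tax1bp1* at 47.2 and *Cyld* at 40.1 FPKM were the most abundant in DMSO. The 7 ligands were below the filter, with no value above 0.366 FPKM, that of *Lta* (*Tnf* at most 0.0373), and *Il1b* and *Ltb* were listed at 0 in all 9 samples.

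Of 22 textbook target genes 14 were tested, with *Csf1* (125 FPKM) and *Gadd45b* (114 FPKM) the most abundant in DMSO. *Csf2*, which encodes the cytokine GM-CSF, had means of 0.718 ± 0.356 FPKM in DMSO, 7.03 ± 1.25 in E2 and 2.11 ± 0.991 in 4OHT (SD, n = 3) and rose with E2 by 2.23 on the log2 scale (SE 0.24, limma adjusted p = 0.0132), a call lost without DMSO replicate 2 or 3 or E2 replicate 1 or 2 (up to 0.0701). In 4OHT versus DMSO *Csf2* was higher in the 3 pairs (log2 fold change 0.83, limma adjusted p = 0.239 with the block). It was not called here, while the study's own test lists it among the genes raised by 4OHT. *Ier3*, an early response gene linked to cell survival, had means of 99.6 ± 4.54, 164 ± 6.25 and 109 ± 1.32 and rose with E2 by 0.71 (SE 0.05, adjusted p = 0.00390), a call kept with any 1 sample left out. With the block *Vcam1* was also higher with E2 (log2 fold change 0.26), and *Gadd45b* (114 to 90.6 FPKM, -0.32), *Cxcl1* (-0.33) and *Csf1* (125 to 110, -0.18) were lower. The target genes that passed thus lay in both directions, and their median log2 fold change was -0.01 beside about 0 (-0.003) over all rows. Calls made only with the block in these lists were mostly lost when samples were left out. *Itch* kept its call in 9 of 9 such fits, and the others in 0 to 5.

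**Figure D4:**
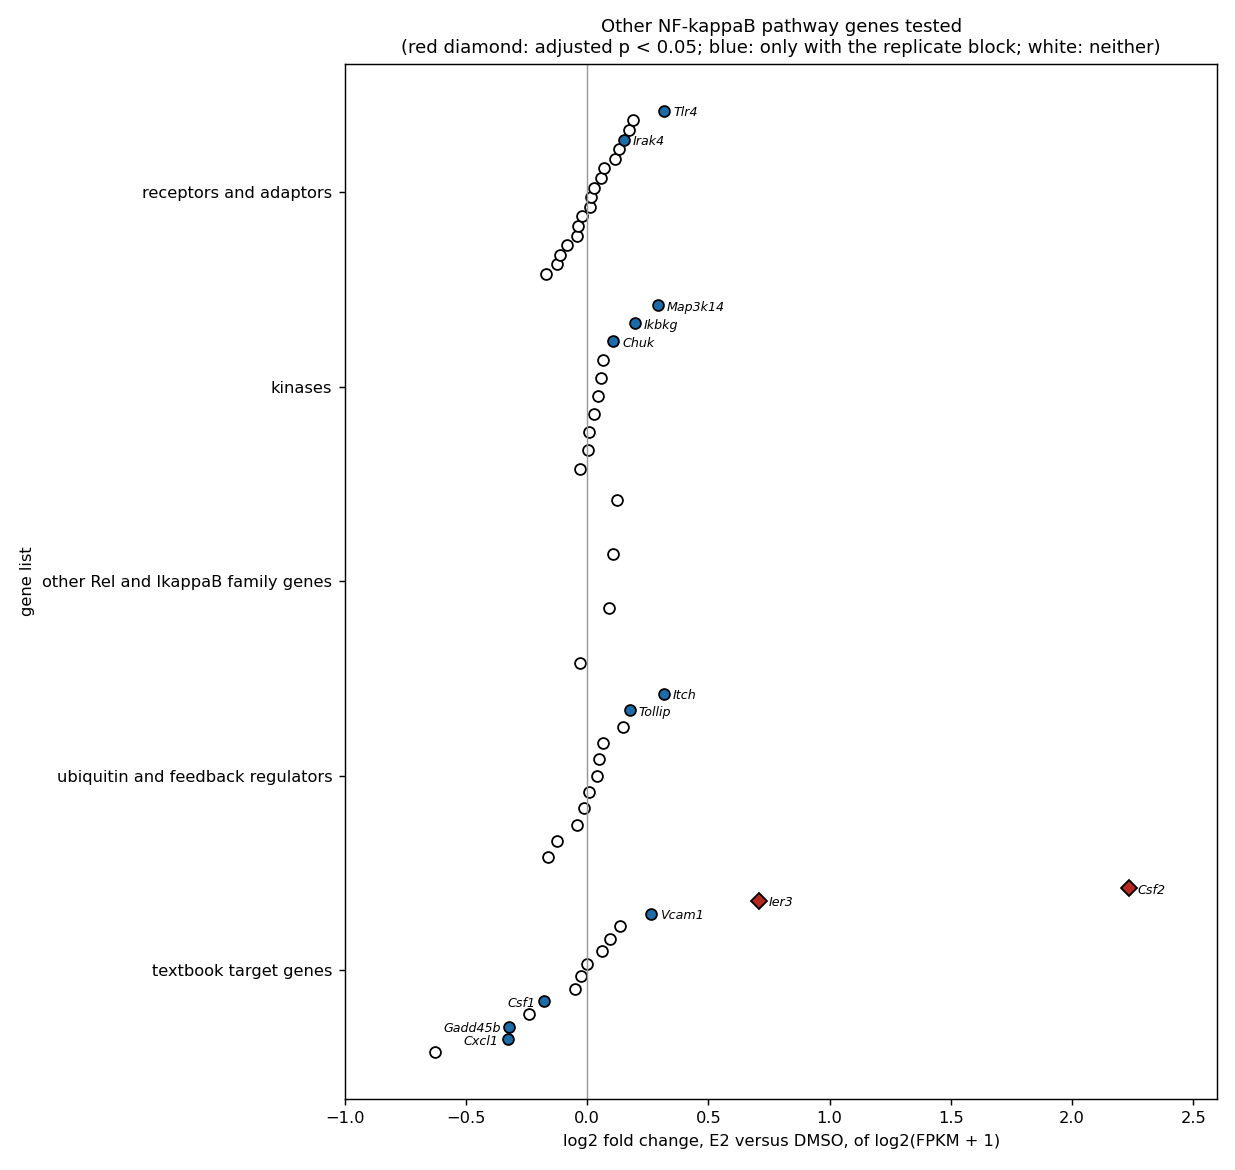
Log2 fold change of log2(FPKM + 1) for E2 versus DMSO (horizontal axis) of the 57 other pathway genes tested, 1 point per gene, by list. Red diamonds passed without the block (*Csf2* at 2.23 and *Ier3* at 0.71), blue points only with it and white points in neither fit, and none of the ligands was tested.

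The genes whose log2(FPKM + 1) was most like that of *Nfkbia* over the 9 samples were *Bcas1* (Pearson r = 0.986), the joined row of *Hyal1*, *Hyal3* and *Nat6* (0.986), *Samd5* (0.985), *Arid5a* (0.984) and *Lpl* (0.982). The 9 points share their libraries and fall into the E2 samples and the rest, so these r are a description. *Arid5a*, *Bcas1* and *Samd5* passed the FPKM filter only through their E2 samples, the group where *Nfkbia* is high. Outside E2 *Arid5a* was at most 0.843 FPKM, and *Bcas1* and *Samd5* reached 1 only in samples of replicate 1. *Lpl*, which encodes lipoprotein lipase, averaged 45.2 FPKM with DMSO, 127 with E2 and 45.8 with 4OHT, and *Bcas1* 0.614, 3.61 and 0.554. Like *Nfkbia*, all of these rows were highest in replicate 1 in each condition, so a difference between replicate numbers also enters these r.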

How the data were processed

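RNA was sequenced from 9 samples of FVB MOE cells, 3 per condition, grouped by their labels. Per the study's methods the libraries were oligo-dT selected, directional and read as 50 bp single ends, and the authors filtered and trimmed reads, placed them on mm10 with TopHat2, and made the deposited FPKM per gene with Cufflinks and Cuffdiff from UCSC gene models. The submitters' processing notes name TopHat2 2.0.8b and Cuffdiff 2.1.1. A further scaling of these FPKM between libraries is not given in the sources used here, and since the FPKM tables hold no counts, only a relative depth was computed from them and no counting interval is given.

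The 11339 of 23332 rows that reached an FPKM of 1 in 3 or more samples were tested on log2(FPKM + 1) with limma 3.58.1 with a trend in R 4.3.3, on all 9 samples with condition only, with Benjamini-Hochberg adjustment per contrast and a threshold of 0.05. Fold changes of log2(FPKM + 1) understate those of low genes. The study's own test, Cuffdiff, needs reads and was not used. A second fit added the replicate number as a block. The pairing was taken from the data: over the 11094 tested rows without an exact 0, deviations from the condition means correlated between the same-numbered samples in all 9 pairs (r 0.52 to 0.83), and every one of the 9 samples correlated best with its own number (over all tested rows r 0.05 to 0.29, and 7 of 9). No member had an exact 0.

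The members and all lists were chosen with earlier results of these data known. The genes named were all 10 members, pathway genes past the threshold without the block, up to 6 per list past it with the block, the 2 most abundant in DMSO per list and the 5 genes most correlated with *Nfkbia*. *Rel*, *Nfkbid*, *Tnf*, *Il1b* and *Ltb* were named after their values were seen. Tried as alternatives were no filter, an FPKM minimum of 5, a pseudocount of 0.1, upper-quartile scaling, the block, exact zeros taken as missing (also together with the block), fits on the 6 samples compared and each sample left out, and, added after the data were seen, each sample left out with the block. Positions came from GENCODE for GRCm38 (mm10), and promoter windows from RefSeq. Python 3.11.15 with matplotlib 3.10.9 searched motifs and drew the plots.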

Additional observations from a re-analysis of the deposited data

How the results depend on the processing

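The direction of the *Nfkbia* difference in E2 versus DMSO and in E2 versus 4OHT was the same in all 26 alternatives. With the replicate block, the pairing by number, 1702 genes (from 58) were called in E2 versus DMSO and 1840 (from 18) in E2 versus 4OHT, with 5 of the 10 NF-kappaB genes in each (from 1 and 0), and the block changed no other call among them, nor the 0 calls in 4OHT versus DMSO. With exact zeros as missing together with the block, 2128 genes were called in E2 versus DMSO, 22 in 4OHT versus DMSO and 2476 in E2 versus 4OHT, 6, 0 and 5 of them among the 10, and with the zeros missing alone 37 and 1 in E2 versus 4OHT. Without a filter 32 genes were called in E2 versus DMSO, 0 of them among the 10, and 9 in E2 versus 4OHT. The fits on the 6 samples compared called 8 (0 of the 10), 3 and 7 genes, and a pseudocount of 0.1 called 10 in E2 versus 4OHT. Upper-quartile scaling turned the *Rela* difference in 4OHT versus DMSO to -0.013. The cause of these shifts was not tested. Leaving out 1 sample gave 8 to 50, 0 to 2 and 0 to 23 genes called without the block and 534 to 1328, 0 to 6 and 272 to 1513 with it, in the same order of contrasts. Among the 10 these were 0 to 1 in E2 versus DMSO and 0 in E2 versus 4OHT without the block, and 2 to 4 and 1 to 5 with it. Where leaving out a sample turned a direction, the log2 fold changes over both fits ran, in 4OHT versus DMSO, from -0.042 to 0.087 for *Rela*, -0.14 to 0.065 for *Nfkb1*, -0.062 to 0.20 for *Nfkb2*, -0.065 to 0.18 for *Nfkbie*, -0.063 to 0.15 for *Bcl3*, -0.044 to 0.44 for *Tnfaip3* and -0.027 to 0.18 for *Nfkbib*. They ran from -0.026 to 0.39 for *Tnfaip3* in E2 versus 4OHT and from -0.14 to 0.045 for *Nfkbib* in E2 versus DMSO. None of these was called. DESeq2 needs counts and was not run.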
